A study of Mus musculus with 6 samples.

Results

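Chromatin bound by the testis histone TH2B was mapped in mouse male germ cells in 2 ways, with an antibody against TH2B itself and with an antibody against an HA tag on TH2B. The autosomal landscapes of both ways are set side by side here. The native side is the list of enriched islands from anti-TH2B ChIP of total male germ cells of adult wild-type mice. The HA side is the union of 2 lists from anti-HA ChIP in adult Th2b+/tag mice, 1 from spermatocytes, which are in meiosis, and 1 from round spermatids, which have completed it. The members were chosen by chromosome, as all islands on chromosomes 1 to 19. They were 13368 of the 13582 native islands, 14956 of the 15585 spermatocyte islands and 16447 of the 17340 round spermatid islands. Overlapping islands of both HA lists were merged, which turned 31403 islands into 28884 HA regions. Of these, 12480 came from spermatocytes only, 13967 from round spermatids only and 2437 from both. The 42252 native islands and HA regions stand for most of the 46507 islands in all 3 lists.

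Each group had 1 ChIP library and 1 input library, so 6 samples in all, and there was no replicate error and no test. Cells, antibody, genotype and libraries differed together between the native and HA sides and cannot be told apart. The lists also differed in how island ends were written, so a difference in list processing cannot be told apart either. Th2b+/tag mice carry 1 tagged and 1 untagged copy of the gene, so the HA antibody sees only the tagged share of TH2B, fused at its C-terminus to His, Flag and HA. Total germ cells hold spermatocytes and round spermatids together with the other germ cells of the adult testis. The tagged cells were fractionated on a BSA gradient, and the labels speak of pooled fractions, read here as pooled within each cell type. The lists hold no expression values, so the cell types were not checked against markers. No HA ChIP of untagged cells was analysed here. Intervals below are 95% intervals for counting error only, and windows and islands along a chromosome are not independent of each other.

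TH2B is a variant of histone H2B made in male germ cells. It takes the place of much of the ordinary H2B from meiosis on and remains in the nucleosomes of round spermatids until histones are exchanged for transition proteins and protamines. A histone that is part of so many nucleosomes can give a broad and shallow ChIP profile. The islands here were stretches of modest excess over input, with median folds of 1.45 native, 1.51 in spermatocytes and 1.47 in round spermatids. The cause of these modest folds was not tested. The island caller joined enriched windows of 200 bp across gaps of up to 600 bp.

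Native islands and HA regions were crowded in different parts of the autosomes. The 19 autosomes were divided into 2482 windows of 1 Mb, and each island was counted in the window that held its midpoint. The native list had a median of 5 islands per window (quartiles 2 and 8), the spermatocyte list 5 (1 and 10), the round spermatid list 6 (2 and 10) and the HA union 11 regions (4 and 18). Across windows the Spearman correlation of native counts with HA union counts was -0.24. It was -0.28 with the spermatocyte list alone and -0.18 with the round spermatid list alone. Between both HA lists it was 0.79. The sign of the relation therefore differed between the native comparison and the comparison within HA. Both HA lists share antibody, genotype and tag, and windows share base composition, mappability and neighbours, so these correlations are descriptions without a p-value. Of the windows, 68 held no island in any list, and 57 of these were the first 3 Mb of the 19 chromosomes. Without these 68 windows the native and HA correlation was -0.33.

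Counts were more uneven along the genome in both HA lists than in the native list. The variance of the counts over their mean, which is 1 for islands scattered at random, was 2.91 for the native list, 4.62 for spermatocytes and 4.42 for round spermatids. No native island was found in 243 windows (9.79%), no spermatocyte island in 404 (16.3%) and no round spermatid island in 319 (12.9%). The HA union, which is longer, had no region in 237 windows (9.55%), slightly fewer than the native list. The highest native count was 33, in chr4:146000001-147000000, which had 8 spermatocyte and 5 round spermatid islands. The highest HA count was 48 regions, in chr1:101000001-102000000, with 29 spermatocyte islands, 26 round spermatid islands and 3 native islands.

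**Figure D1:**
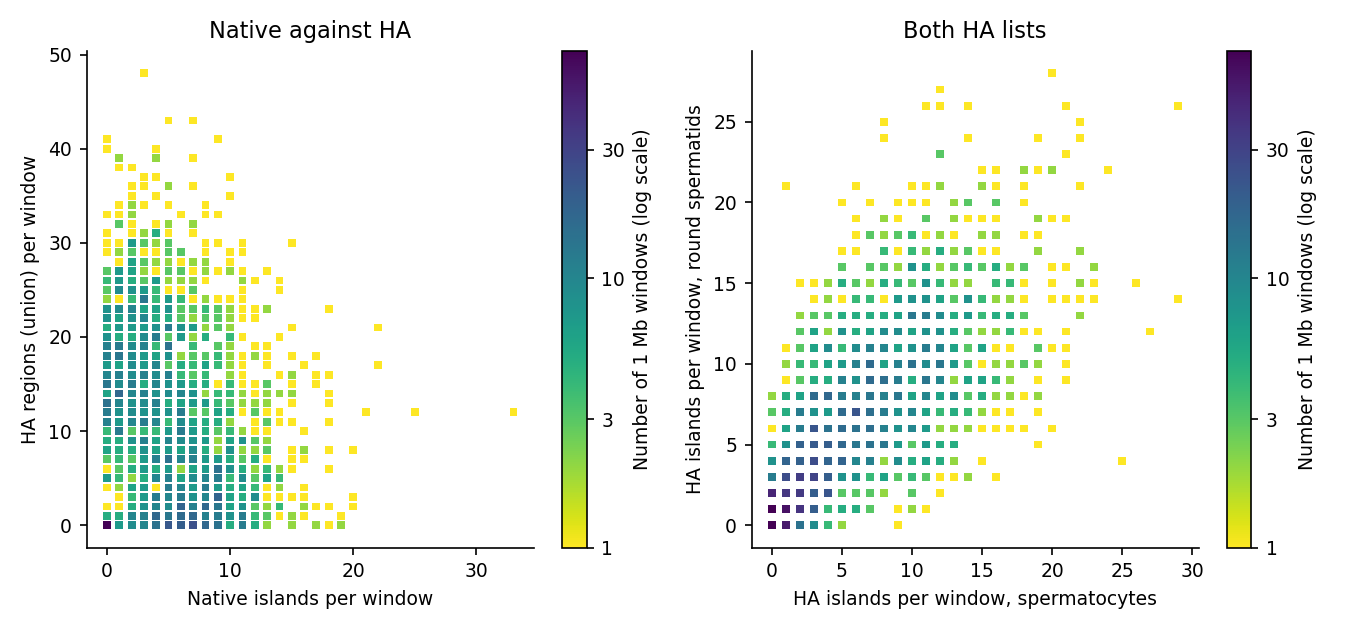
Number of islands per 1 Mb autosomal window, with the native list against the HA union on the left and spermatocytes against round spermatids, both HA, on the right. Each square is a pair of counts, coloured by the number of windows on a log scale. The native panel slopes down (rho -0.24) and the HA panel slopes up (rho 0.79).

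The opposite slope could be followed through classes of native count. In the 175 windows with HA regions and no native island, the median was 15 HA regions (quartiles 11.5 and 20). In the 428 windows with 1 or 2 native islands it was 16. It was 13 with 3 to 5 native islands, 7 with 6 to 9, 6 with 10 to 14 and 8 in the 54 windows with at least 15. The fall lay between 2 and 6 native islands per window, and above that the HA median stayed between 6 and 8. Round spermatid islands, in contrast, went with spermatocyte islands at every step. Their median was 0 in the 336 windows without a spermatocyte island, outside the empty windows, and 2, 5, 8, 11 and 13 in the same 5 further classes of spermatocyte count.

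The richest windows were shared within HA and hardly with the native list. The top 10% of windows by count was taken in each list, with ties at the cut taken in chromosome order. Lists without any relation would share about 10% of these windows. Of the 248 windows that form the top 10% of the native list, 9 (3.63%) were also among the 248 highest of the HA union. For the native list and spermatocytes the number was 7 (2.82%), and for the native list and round spermatids 14 (5.65%). Both HA lists shared 98 (39.5%). A further 169 windows held native islands and no HA region, with 1166 native islands, 8.72% of that list. The 175 windows with HA regions and no native island held 2755 regions, 9.54% of the union.

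Windows were called richer in one side where its share of all its islands was at least 2 times the share of the other side. Before this, 0.5 was added to both counts of a window. The native list is shorter, so the added 0.5 draws low counts towards a native over HA ratio of 2.16, that of an empty window. So some windows with an HA share just above 2 times the native share were not called HA-rich. An example is chr2:148000001-149000000, with 4 native islands and 18 HA regions (ratio 0.526). Only windows with at least 10 native islands and HA regions in all were compared. Native-rich windows numbered 511 of 1963 (26.0%) and HA-rich windows 699 (35.6%). Since the union is longer than the native list, this minimum admits HA-rich windows more easily. Against spermatocytes alone, a list of similar length, 434 of 1523 windows were native-rich (28.5%) and 563 were richer in spermatocyte islands (37.0%). Against round spermatids alone 416 of 1568 were native-rich (26.5%) and 501 richer in round spermatid islands (32.0%). The same rule between both HA lists gave 129 of 1387 windows richer in spermatocytes (9.30%) and 141 richer in round spermatids (10.2%). So the native list differed by this fold from either HA list in more windows than the HA lists differed from each other. The counts depend on the minimum and the window. With at least 20 in all, 82 of 901 windows were native-rich and 419 (46.5%) HA-rich, and in 0.5 Mb windows 251 and 846 of 1912 were. With at least 3 in all, 843 of 2387 were native-rich (35.3%) and 734 HA-rich (30.7%), so which class was larger turned with the minimum. The 519 windows under 10 held 14.9% of native islands and 3.20% of HA regions.

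Native-rich windows held 40.0% of native islands, 7.51% of spermatocyte islands and 9.56% of round spermatid islands. Their median counts were 10 native, 2 spermatocyte and 3 round spermatid islands. HA-rich windows held 9.83% of native islands, 52.4% of spermatocyte islands and 47.6% of round spermatid islands, with medians of 2, 11 and 11. The classes were set from these same counts, so the contrast in shares and medians follows from the rule. Of the 511 native-rich windows, 385 were also native-rich against spermatocytes alone and 391 against round spermatids alone. Of the 699 HA-rich windows, 492 and 461 were. The union contains each HA list, so these counts are not independent of it.

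The 5 windows with the largest native share relative to HA had no HA region at all. The window chr7:150000001-151000000 held 19 native islands, 0 from spermatocytes and 0 from round spermatids. Its neighbour chr7:151000001-152000000 held the same numbers. Their share of the native list was 0.142% (0.0856 to 0.222), against an HA share of 0% that the exact interval bounds at 0.0128%. With a fixed floor of 3 regions in place of a count of 0, the native share was at least 13.7-fold higher in both. This floor is lower than the exact bound, and it leaves out the counting error of the native count, so the folds order the windows and are not interval limits. Next came chr2:180000001-181000000 with 18 native islands (at least 12.96-fold), chr4:153000001-154000000 with 17 and chr5:36000001-37000000 with 17 (both at least 12.2-fold), again with 0 in both HA lists. The windows on chromosomes 7, 2 and 4 lie within the last 10% of their chromosomes, and the one on chromosome 5 does not.

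The 5 windows with the largest HA share relative to native had no native island. In chr11:42000001-43000000 there were 24 spermatocyte and 22 round spermatid islands, merged into 41 regions, and 0 native islands, an HA share of 0.142% (0.102 to 0.193) against 0% (up to 0.0276%), at least 6.33-fold higher by the same floor of 3. In chr1:116000001-117000000 there were 22 and 24 islands in 40 regions (at least 6.17-fold), and in chr16:63000001-64000000 22 and 14 in 33 regions (at least 5.09-fold). The last of these windows were chr6:45000001-46000000 with 15 and 18 islands in 31 regions (at least 4.78-fold) and chr6:76000001-77000000 with 18 and 15 in 30 regions (at least 4.63-fold). Both HA lists contributed to each of the 5. The window on chromosome 11 shows that an HA-rich stretch can lie on the autosome with the most native islands per Mb.

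A few windows were high on both sides. The highest sum of ranks was in chr9:28000001-29000000, with 15 native, 14 spermatocyte and 24 round spermatid islands. It was followed by chr12:28000001-29000000 with 13, 7 and 20 and by chr6:101000001-102000000 with 14, 10 and 16. Their ratios of native share to HA union share were 1.10, 1.06 and 1.18, so neither the native list nor the union was favoured at these places. This does not hold for each HA list alone. The chr12 window had 7 spermatocyte and 20 round spermatid islands beside 13 native ones.

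The preference of a stretch for native or HA islands extended over several Mb. The log2 ratio of shares in a window correlated with that of the next window with a rho of 0.67 (2463 pairs). With the window 5 Mb on the rho was 0.28, and with the window 20 Mb on it was 0.14. The 68 windows without any island were included. Their ratio of 2.16 native over HA comes only from the 0.5 added to both counts, and the rho without them was not computed. For the counts themselves the correlation of next windows was 0.50 in the native list, 0.57 in spermatocytes and 0.45 in round spermatids. Uninterrupted runs of at least 5 windows of the same class numbered 10 for native-rich and 38 for HA-rich windows, where windows under the minimum of 10 break a run. With a minimum of 3, chosen after the data were seen, they numbered 53 and 44. Places in these runs were named after their values were seen. With the minimum of 3 the longest native-rich runs had 20 windows. From chr4:123000001 to 143000000 they held 135 native, 2 spermatocyte and 10 round spermatid islands, and from chr9:53000001 to 73000000 they held 196, 32 and 29. The longest HA-rich run had 18 windows, from chr16:60000001 to 78000000, with 22 native, 219 spermatocyte and 170 round spermatid islands. With the minimum of 10, chromosome 14 carried the longest of both kinds. From chr14:60000001 to 69000000, 9 windows held 90 native, 17 spermatocyte and 22 round spermatid islands. From chr14:88000001 to 100000000, 12 windows held 9 native, 112 spermatocyte and 92 round spermatid islands.

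The relation depended on scale. In windows of 0.1 Mb the native and HA union counts correlated with -0.04, in 0.5 Mb windows with -0.16, in 2 Mb windows with -0.34 and in 5 Mb and 10 Mb windows with -0.39. The correlation of both HA lists rose over the same sizes from 0.41 to 0.88. Small windows hold few islands, and the part of counting error in these lower values was not tested. At every size tried, from 0.1 to 10 Mb, the native coefficients were below 0 and the HA coefficient above 0.

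Whole chromosomes differed in the same sense. Chromosome 11 had the most native islands per Mb for its HA regions, 7.12 against 4.40 in spermatocytes, 5.02 in round spermatids and 8.76 in the union. Chromosome 7 was next, with 6.02 against 3.72, 5.41 and 8.51. At the other end stood chromosome 1, with 4.64 native islands per Mb against 8.16, 10.3 and 16.9, and chromosome 3, with 3.96 against 7.43, 8.02 and 14.05. Over the 19 chromosomes the densities correlated with -0.60 between native and HA union, and with 0.88 between both HA lists. The differences were not only between chromosomes. Within single chromosomes the window correlation of native and HA counts was below 0 in 17 of 19, from -0.41 on chromosome 6 to 0.22 on chromosome 19, with a median of -0.22. Chromosome 7, at 0.01, was the other exception. Both HA lists correlated positively on all 19, from 0.64 on chromosome 3 to 0.85 on chromosome 15.

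**Figure D2:**
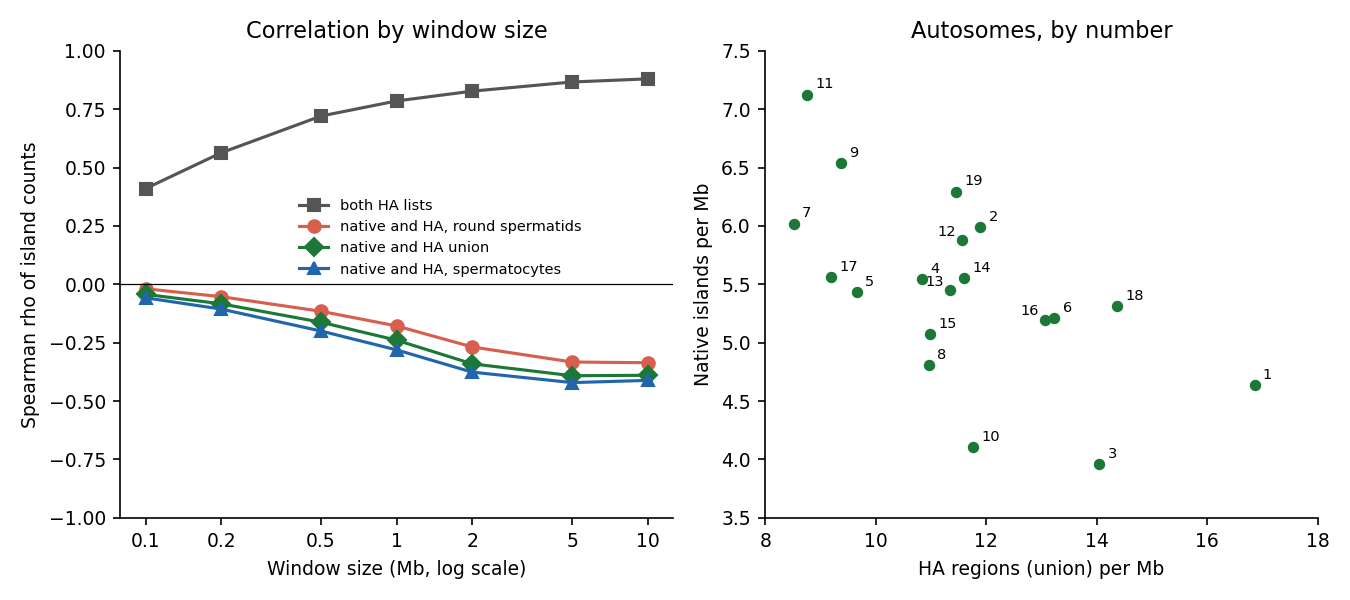
Left, Spearman correlation of island counts against window size on a log axis for 4 pairs of lists. Right, native islands per Mb against HA regions per Mb, each point an autosome labelled by its number, on axes that do not start at 0. The HA pair lies above 0 and all native pairs below 0 at every size, and chromosomes 11 and 1 lie at opposite ends.

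Native islands were most frequent towards the distal ends of the chromosomes, where HA islands were sparse. Mouse autosomes have their centromere at the end where coordinates begin. Each was divided into 10 equal parts. The last part held 13.1% of native islands (interval 12.5 to 13.7), 6.47% of spermatocyte islands (6.08 to 6.87) and 7.81% of round spermatid islands (7.40 to 8.23). The first part, which includes the 3 Mb without islands, held 6.51% of native islands, 8.57% of spermatocyte islands and 9.72% of round spermatid islands. HA shares peaked in the middle, at 12.2% and 12.1% in the sixth part, where the native share was 9.54%. On 15 of 19 chromosomes the last part held a larger share of the native islands than of the HA regions. It held 20.3% against 4.24% on chromosome 7, 19.6% against 4.33% on chromosome 4 and 19.96% against 5.60% on chromosome 16. The reverse was found on chromosomes 13 (5.79% against 11.6%), 14 (7.77% against 11.6%), 17 (7.17% against 13.01%) and 18 (8.92% against 10.97%).

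Among the windows compared, 83 of 178 in the last part were native-rich (46.6%) and 39 HA-rich (21.9%), while in the first part 18 of 166 were native-rich (10.8%) and 69 HA-rich (41.6%). Without the last 10% of each chromosome the window correlation of native and HA counts was still -0.24. Within the 10 parts, leaving out the empty windows, it ranged from -0.13 in the last to -0.44 in the sixth, and that of both HA lists from 0.68 to 0.82.

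**Figure D3:**
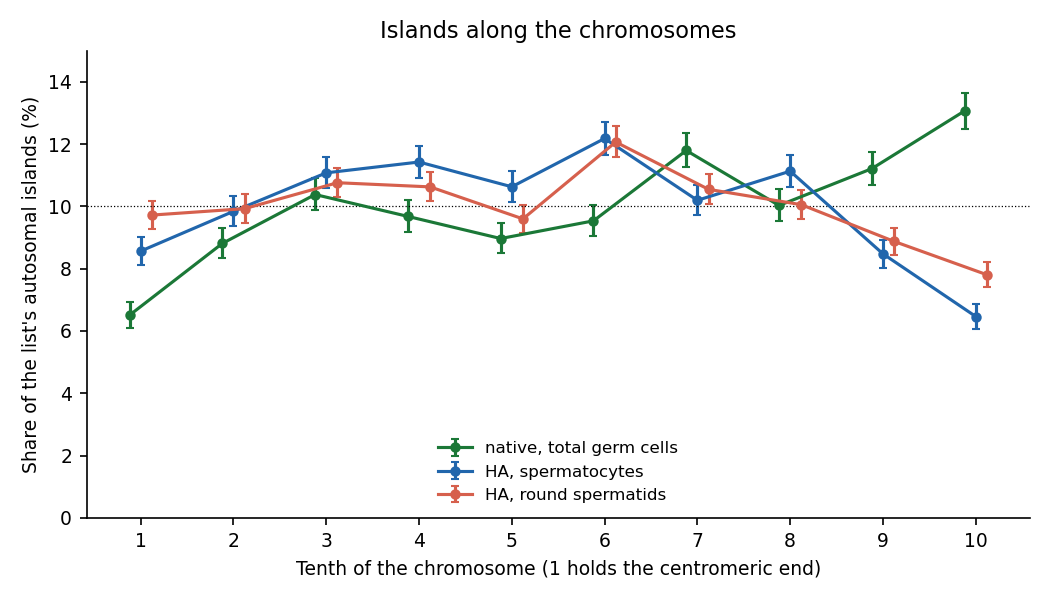
Share of each list's autosomal islands in 10 equal parts of the chromosomes, counted from the centromeric end, with 95% exact binomial intervals as bars. The dotted line marks an even 10%. The native share reaches 13.1% in the last part, where the HA shares are 6.47% and 7.81%.

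Distances between single islands gave the same order. They come from the same islands as the window counts, and gaps with the density of the surrounding window held fixed were not computed. The gap from a spermatocyte island to the nearest round spermatid island had a median of 22.4 kb (interval 21.4 to 23.2), and to the nearest native island 87.4 kb (85.0 to 90.2). From a round spermatid island the medians were 25.2 kb to a spermatocyte island and 78.0 kb to a native one. From a native island they were 102 kb to a spermatocyte island, 80.8 kb to a round spermatid island and 44.2 kb (42.0 to 46.4) to any HA region. A gap depends on how many islands can be met. The mean spacing along the autosomes was 185 kb for native islands, 165 kb for spermatocyte islands and 150 kb for round spermatid islands. Relative to the spacing of the list searched, the median gap was 0.149 and 0.152 between the HA lists. It was 0.473 and 0.422 from HA islands to native ones and 0.617 and 0.538 from native islands to spermatocyte and round spermatid ones.

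Taken island by island, most HA islands were nearer to the other HA list. Of the spermatocyte islands 10872 (72.7%, 72.0 to 73.4) lay nearer to a round spermatid island than to a native one, 3912 lay farther and 172 were at equal distance. Of the round spermatid islands 11378 (69.2%, 68.5 to 69.9) lay nearer to a spermatocyte island than to a native one. With the same number of islands in each list, taken by lowest FDR, these shares were 69.4% and 67.1%. Of the native islands 5681 (42.5%) lay nearer to a spermatocyte island and 7467 nearer to a round spermatid island. The round spermatid list is the longer one, with 16447 islands against 14956, and this comparison was not made with equal numbers.

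Islands that overlapped by at least 1 bp were the near end of these distributions. A native island overlapped an HA region in 1373 cases (10.3%, 9.76 to 10.8), and 1371 HA regions (4.75% of the union) overlapped a native island. Against single lists, 5.06% of native islands overlapped a spermatocyte island and 6.10% a round spermatid island. Between the HA lists the shares were 16.6% of spermatocyte and 15.1% of round spermatid islands. The overlap that density and length alone would give was not computed. At the other extreme, 370 native islands (2.77%) lay more than 1 Mb from any HA region, against 28 spermatocyte islands (0.187%) and 89 round spermatid islands (0.541%) that lay that far from the other HA list. The native islands farthest from HA were chr4:139469601-139473000, chr4:139691601-139693000 and chr4:139700801-139703400, at 3392, 3332 and 3322 kb, all within the 20 native-rich windows of chromosome 4. They had folds over input of 1.55, 1.43 and 1.62 in the authors' lists, on both sides of the native median of 1.45.

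The spermatocyte islands farthest from any native island were chr15:48006601-48008600, chr15:48013601-48018800 and chr14:90218601-90222400, at 2112, 2102 and 2026 kb. Those of round spermatids were chr15:47750601-47753600, chr15:48029601-48032200 and chr16:68480201-68482600, at 2367, 2089 and 1999 kb. The same place on chromosome 15 thus held the farthest islands of both HA lists, a pair from each. The chromosome 14 island lies inside the HA-rich run described above.

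Within each list, the native islands were also the most evenly spaced. The median gap between neighbouring native islands was 92.6 kb, 0.501 of the mean spacing. In spermatocytes it was 64.0 kb (0.387) and in round spermatids 56.2 kb (0.374). A neighbour within 10 kb was found after 8.82% of native, 11.9% of spermatocyte and 13.2% of round spermatid islands.

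**Figure D4:**
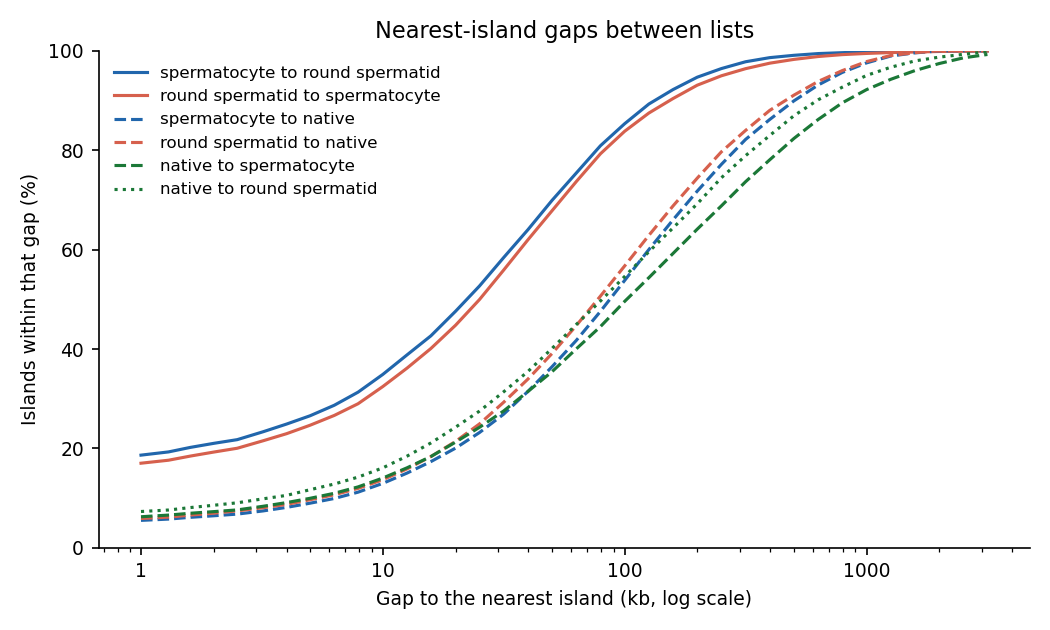
Cumulative share of islands within a given gap of the nearest island of another list, with the gap in kb on a log axis. Solid lines run between both HA lists and broken lines between an HA list and the native list. The solid lines reach 50% at 22.4 and 25.2 kb and the broken lines between 78.0 and 102 kb.

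Native islands were shorter than HA islands. Their median length was 2600 bp (quartiles 2000 and 3200), against 3600 bp (2800 and 4600) in spermatocytes, 3400 bp (2600 and 4400) in round spermatids and 3600 bp in the union, 1.38 times the native median. Under 2 kb were 23.3% of native, 7.495% of spermatocyte and 10.1% of round spermatid islands. At least 5 kb were 4.76%, 19.5% and 17.2%. Together the native islands covered 36.9 Mb (1.49% of the autosomes), the spermatocyte islands 56.9 Mb (2.30%), the round spermatid islands 60.0 Mb (2.43%) and the union 111 Mb (4.48%).

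ChIP reads per kb, as raw counts not scaled to library size, were higher in native islands. The median native island held 119 ChIP reads, or 47.5 per kb, while the medians were 103 and 29.4 per kb in spermatocytes and 116 and 35.3 per kb in round spermatids. The native median per kb was 1.62 times that of spermatocytes and 1.34 times that of round spermatids. For raw input reads per kb it was 1.45 and 1.31 times. At a like number of reads, 100 to 124, the median length was 2400 bp in 4002 native islands, 4000 bp in 4463 spermatocyte islands and 3200 bp in 4848 round spermatid islands. Their median folds over input, as deposited by the authors, were 1.47, 1.49 and 1.48. Native islands were the shorter here too, but at a fixed number of reads a denser island must be shorter. This comparison therefore restates the read density, which was 47.3 per kb native, 28.2 in spermatocytes and 34.4 in round spermatids. In all 3 lists length fell as the fold rose. The median at a fold under 1.5 was 2800 bp native, 4200 bp in spermatocytes and 3800 bp in round spermatids, and at a fold of at least 2 it was 1600, 2400 and 2200 bp. Read totals outside islands were not used here, so the part of library depth in these lengths and read densities was not tested.

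Input density, the control reads per kb of island, had a similar spread on both sides once scaled to its own list. The median was 32.7 reads per kb in native islands, 22.5 in those of spermatocytes and 25 in those of round spermatids. The size of the input libraries outside islands was not used here, so from here on only values scaled to each list are compared. The 95th percentile was 1.81 times the 5th in the native list, 1.93 times in spermatocytes and 1.96 times in round spermatids. The upper tail was heavier in the HA lists. Above 2 times the median of their list were 87 native islands (0.651%, 0.522 to 0.802), 145 spermatocyte islands (0.970%, 0.819 to 1.14) and 225 round spermatid islands (1.37%, 1.20 to 1.56). These few islands held 4.85% of all control reads in native islands, 19.8% in those of spermatocytes and 21.7% in those of round spermatids. Most of the HA shares came from the 24 spermatocyte and 25 round spermatid islands above 10 times the median, which alone held 17.99% and 18.08%, while the 6 such native islands held 0.417%. Among islands of at least 2000 bp the shares above 2 times the median were nearly the same, 0.556% native and 0.562% over both HA lists, so the heavier HA tail lay among short islands.

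Read-rich HA islands were short, with a median of 1400 bp in both lists against 3400 bp in the native list. Of the spermatocyte islands above 2 times the median, 58 of 145 (40.0%, 32.0 to 48.5) overlapped a round spermatid island, against 13.8% of those up to the median. Of such round spermatid islands, 60 of 225 (26.7%, 21.0 to 33.0) overlapped a spermatocyte island, against 13.4%. Above 5 times the median the numbers were 27 of 42 (64.3%, 48.0 to 78.4) and 29 of 44 (65.9%, 50.1 to 79.5). A native island was overlapped by 16 of the 145 (11.03%) and 23 of the 225 (10.2%), against 3.63% and 4.10% up to the median. Above 5 times it was overlapped by 3 of 42 (7.14%, 1.498 to 19.5) and 2 of 44 (4.55%, 0.555 to 15.5), with intervals that include the shares up to the median. Of the 87 read-rich native islands 16 (18.4%, 10.9 to 28.1) overlapped an HA region, against 10.5% of native islands up to the median. With the islands above 2 times the median removed from all lists, the window correlation of native and HA counts was still -0.24.

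**Figure D5:**
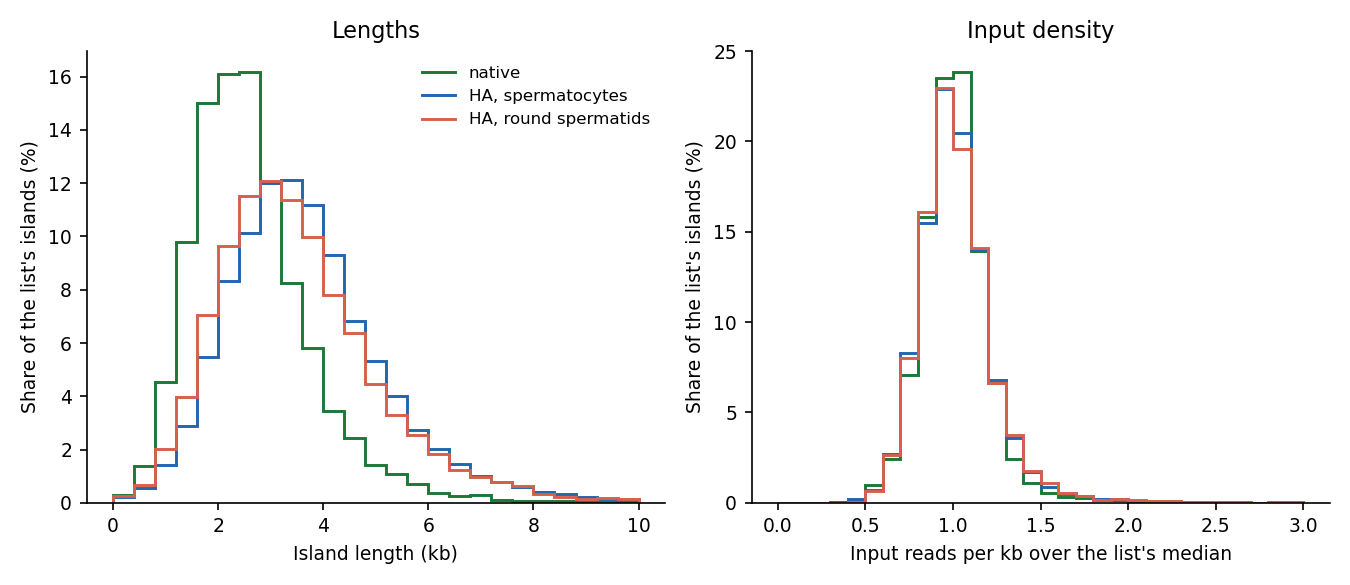
Distribution of island length in bins of 0.4 kb up to 10 kb (left) and of input reads per kb divided by the median of the list in bins of 0.1 up to 3 (right), as a share of each list's autosomal islands. The native curve of length lies left of both HA curves (medians 2600, 3600 and 3400 bp), and the curves of input density nearly coincide.

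Native islands differed slightly between classes of window, and HA islands less. Native islands had a median fold of 1.43 (1.42 to 1.44) in native-rich windows, 1.46 between the classes and 1.53 (1.52 to 1.54) in HA-rich windows. The fold was 2 or more in 267 of 5348 (4.99%) in native-rich and 147 of 1314 (11.2%) in HA-rich windows. Their input density moved the other way, from 33.5 reads per kb (33.3 to 33.6) to 30.7 (30.3 to 31.1), and their ChIP density from 48.0 to 46.2. The few native islands in HA-rich stretches thus stood on a lower input, and the part of the input in their fold was not tested. Spermatocyte islands had median folds of 1.51 and 1.52 and an input density of 22.5 in both classes, and round spermatid islands folds of 1.47 and 1.48 and densities of 25.25 and 25. In native islands the median input density of a window had a rho of 0.22 with its native count and -0.23 with its spermatocyte count (1811 windows with at least 3 native islands). For the input in spermatocyte islands these values were 0.09 and 0.04.

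Where islands of 2 lists did overlap, their other measures were only weakly related. Over 681 overlapping pairs of native and spermatocyte islands the rho was 0.16 for input density, 0.11 for fold and 0.06 for length. Over 824 pairs of native and round spermatid islands it was 0.19, 0.06 and 0.12. The 2519 pairs of both HA lists gave 0.38, 0.13 and 0.16. Even at shared places the native island was the shorter, with a median of 2600 bp beside 4000 bp for the spermatocyte island and 2600 bp beside 3800 bp for the round spermatid island.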

How the data were processed

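TH2B ChIP was compared with input in 3 ChIP libraries, each with 1 deposited list of islands without a header. Islands were called with SICER on mm9, per the submitters' processing notes. For the aligner, versions and read filters, the sources used here give nothing. For each island the authors deposited ChIP and control read counts, a p-value with its FDR, and a fold over control. This deposited fold is the ratio of both counts divided by 1 constant per list (0.989 native, 0.854 spermatocytes, 0.944 round spermatids). Columns were identified from their values, and the input library of the same cells, by title, was assumed as control. The native input carries the antibody in its labels. Islands held 1775998 ChIP reads in the native list, 2000483 in spermatocytes and 2510450 in round spermatids, all on autosomes.

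Ends fell on an island's last base in the HA lists and 1 bp later in the native list, which was evened out, and coordinates are printed from 1. Chromosome lengths came from GenomeInfoDb 1.38.1. Before the ratio of shares, 0.5 was added to both counts of a window. Shares have exact (Clopper-Pearson) and medians order-statistic intervals. Python 3.11.15, numpy 2.4.6, pandas 2.3.3, scipy 1.17.1 and matplotlib 3.10.9 were used. Counting and gap routines were checked on simulated islands. Windows named had the 5 largest ratios each way and the 3 highest rank sums. Chromosomes named were the 2 highest and 2 lowest ratios, and islands named the 3 farthest. Other places were named after their values were seen. Members and rules were chosen with earlier results of these data known. Genes and sequences are not given, because the gene tables used another build.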

Additional observations from a re-analysis of the deposited data

How the results depend on the processing

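Of 76 alternatives, 40 left a value within its interval, or a count within 1.5 times, and 36 moved it. A reversed direction could be scored for the window correlation only, which was below 0 in all 32 of its alternatives. Some alternatives were chosen after seeing the data. They left out the last 10% of each chromosome or each chromosome in turn, or required at least 20 or 3 islands. The correlation went from -0.25 without chromosome 7 to -0.23 without chromosome 6. Leaving out a chromosome or the last 10% of each kept 2226 to 2420 of the 2482 windows, so the sign could hardly change. All of these left the correlation within its interval. The cause of the moves was not tested, but windows of other sizes and subsets of islands change counts by construction.

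The correlation was -0.16, -0.34 and -0.39 in windows of 0.5, 2 and 5 Mb, -0.28 with spermatocyte and -0.18 with round spermatid islands alone, -0.18 when only islands with an FDR up to 0.0001 were kept, -0.17 when only those with a fold from 1.5 were kept, -0.20 by covered bp and -0.33 without empty windows. Native-rich windows numbered 251 in 0.5 Mb and 146 in 5 Mb windows, 104 by the FDR limit, 76 by the fold limit, 82 with at least 20 islands and 843 with at least 3. Runs of at least 5 native-rich windows numbered 53 with at least 3. HA-rich windows numbered 374 in 2 Mb and 129 in 5 Mb windows, 398 by the FDR limit, 403 by the fold limit and 419 with at least 20 islands. With at least 10 islands, HA-rich windows outnumbered native-rich ones at 0.5 and 1 Mb, by 846 to 251 at 0.5 Mb, while at 2 and 5 Mb native-rich ones were more, 385 and 146 against 374 and 129, so no order of these counts is read.

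The median native gap was 102 kb to spermatocyte and 80.8 kb to round spermatid islands alone, 47.5 kb between midpoints, 88.3 kb by the FDR limit, 52.1 kb with equal numbers and 41.4 kb without the last 10% of each chromosome. Median lengths were 2400 bp native and 3400 bp HA by the FDR limit, 2200 and 3000 bp by the fold limit, and 3400 bp for unmerged HA islands. Above 3 times the median input density were 0.172% of native and 0.551% of HA islands. Above 2 times it were 0.949% of HA islands by the FDR limit and 0.562% of those of at least 2000 bp, against 1.18% of all. With 1 library a group no paired analysis or leaving out of replicates was possible. Depth limits the lists, since a stretch outside islands may hold weaker excess that was not listed.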
